A study of Rattus norvegicus and synthetic construct with 4 samples.

Results

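Human promoter elements near nuclear genes for mitochondrial translation and protein import were measured by STARR-seq, a plasmid reporter assay in which a sequence is read out from the RNA it yields relative to its plasmid DNA. Membership followed from genome position and used no measured value, although the list of genes was drawn up with earlier results of these data known. An element of the count table belonged to the set if its midpoint lay within 2000 bp of 1 of 32 listed transcription start sites (hg19, the build of all coordinates here), and 20 of 3378 elements did. Each element was a 198 bp human sequence that had been defined in pancreatic islets by CAGE, which sequences the capped starts of transcripts. The library of 7188 designed elements, each plasmid with a random barcode of 16 bases, was electroporated at 10 ug per replicate into INS1 832/13 cells, a rat insulinoma line that secretes insulin and stands in for the beta cell. RNA was taken after 24 h in 3 electroporations that the labels call biological replicates, and 1 library was made of the plasmid input. The study has no other treatment, genotype or time point, so the comparison is RNA against plasmid DNA. The replicates share 1 plasmid pool, and human sequences were read by rat transcription factors on plasmids, outside their chromosomes.

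Mitochondria keep a small genome of their own, whose messages are translated by a mitochondrial ribosome. The proteins of that ribosome are encoded in the nucleus, made in the cytosol and imported. The TOM complex forms the entry gate in the outer membrane, the TIM23 complex carries precursors with a targeting sequence across the inner membrane, and small TIM proteins escort carriers through the space between. Beta cells depend on mitochondrial respiration to couple glucose to insulin release. Most of these genes are transcribed in nearly all cell types.

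Of the 32 sites, 18 had an element in the count table, and 2 of these, SLIRP and CHCHD5, had 2 overlapping elements each. A further 5 sites (MRPL16, MRPL28, MRPL33, TIMM13 and TOMM22) had an element in the barcode pairing table that is not in the count table, and 9 sites (MRPL20, MRPL9, TOMM70A, MRPL14, TOMM7, MRPL15, MRPL21, TIMM44 and TOMM40) had none in either and were not analysed here. At MRPL3, 1 of 3 paired elements was counted. The 7 paired elements without counts had 1 to 4 barcodes. The listed sites are given to the kilobase, and midpoints of members lay from -105 to 935 bp of them, so distances to the true start site are not known. The member farthest out was that of MRPL19. The nearest element outside the limit was 12779 bp from the MRPL24 site and had a mean RNA/DNA of 5.04 ± 5.42 times the centre (SD, n = 3) from 2 barcodes. No human annotation was used, so an element may also serve a neighbouring gene.

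The element sequences themselves were not used here. What was read in every library is the barcode, and each barcode marks 1 separately made plasmid of its element. The barcodes below are from the pairing table and are printed whole in capitals, since every base is part of the tag. The first set shows the 3 plasmids with most RNA counts of each overlapping SLIRP element, because these neighbours share 111 bp and 1 of them was called above the centre.
SLIRP, 78174257 to 78174454, barcode 1: AAGGTGCGGCACCATA
SLIRP, 78174257 to 78174454, barcode 2: CTTTGAGTCTTTAAAG
SLIRP, 78174257 to 78174454, barcode 3: GATTAATGTACCTGAC
SLIRP, 78174344 to 78174541, barcode 1: TCTGGTCTGTCAACAA
SLIRP, 78174344 to 78174541, barcode 2: ATGTTGATACAGTTCA
SLIRP, 78174344 to 78174541, barcode 3: CATTCGCTACTGAGAC
Barcode 1 of the lower-coordinate element had 29 DNA counts and 12, 11 and 33 RNA counts in replicates 1, 2 and 3. Barcode 2 had 72 DNA counts and 4, 21 and 17 RNA counts, and barcode 3 had 20 DNA counts and 13, 1 and 3 RNA counts. No other plasmid of that element had more RNA counts over the 3 libraries. Barcode 1 of the higher-coordinate element had 35 DNA counts and 29, 68 and 32 RNA counts. Its barcode 2 had 36 DNA counts and 43, 31 and 50 RNA counts, and its barcode 3 had 28 DNA counts and 42, 23 and 28 RNA counts. These plasmids were picked by their RNA counts and show what the element values are made of, with no comparison drawn between the elements.

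The next set shows how evenly or unevenly plasmids of 1 element contributed. For TIMM17A, the 2 barcodes with most RNA counts and the one with fewest are given. For MRPL44, all 4 barcodes are given, since its value rests on them alone. The leading barcodes of MRPL37 and MRPL3 are shown because each held nearly all of its element's RNA, and that of the higher-coordinate CHCHD5 element because its RNA count was uneven across the libraries.
TIMM17A, barcode 1: GGTATTTGAAATATTT
TIMM17A, barcode 2: ACAGCTCTAGAATCAG
TIMM17A, barcode with fewest RNA counts: GTACGCGGTTAATTAC
MRPL44, barcode 1: ATCACAGATCATCGTG
MRPL44, barcode 2: TTGTGCATCCGCTCTA
MRPL44, barcode 3: TCTTGCCCCTAAGTGC
MRPL44, barcode 4: ATAATTAGGGATGTAT
MRPL37, barcode 1: GTTTTGTTAGTGAGTA
MRPL3, barcode 1: CGCAGAATGGTTCAAA
CHCHD5, 113342093 to 113342290, barcode 1: TAATTTTGCGCGTCAC
TIMM17A barcode 1 had 85 DNA counts and 238, 83 and 152 RNA counts, and barcode 2 had 48 DNA counts and 211, 99 and 154 RNA counts. The barcode with fewest RNA counts had 19 DNA counts and 1, 3 and 9 RNA counts, so even plasmids of the member with the highest RNA/DNA varied widely. The MRPL44 barcodes had 15, 20, 26 and 23 DNA counts. Their RNA counts in replicates 1, 2 and 3 were 29, 41 and 53 for barcode 1, 16, 20 and 80 for barcode 2, 3, 12 and 32 for barcode 3, and 1, 16 and 17 for barcode 4. All 4 had their highest RNA count in replicate 3, before adjustment for library depth. The MRPL37 barcode had 28 DNA counts and 60, 20 and 16 RNA counts, which was 96.0% of that element's RNA. The MRPL3 barcode had 12 DNA counts and 30, 2 and 4 RNA counts, 97.3% of its element's RNA. The CHCHD5 barcode had 16 DNA counts and 149, 10 and 28 RNA counts, 19.1% of its element's RNA. Over all elements the leading barcode held a median of 41.0% of the RNA, and over the members 25.1%.

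Sequencing depth was 1079728 counts for the plasmid DNA and 197554 to 218571 counts for each RNA library. Counts were summed over the barcodes of an element, and RNA/DNA is given as a multiple of the centre, the level that TMM normalization treats as unchanged. An activity below the centre is therefore not repression. Every counted barcode had at least 10 DNA counts and at least 1 RNA count, so plasmids without RNA were not analysed here. No molecular identifier is named for the PCR reads. SDs are over the 3 RNA libraries against the 1 DNA library and leave out the error of the DNA, and p-values measure the spread between electroporations. The SE is that of the log2 ratio.

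Elements of this set lay above the centre more often than elements of the library as a whole. The centre was set from the elements themselves, so a call is relative to them and is no measure of absolute activity. Whether an element itself starts transcription on the plasmid was not tested. Of the 20 members, 7 were called above the centre in the quasi-likelihood test of edgeR (Benjamini-Hochberg adjusted p under 0.05 over all elements), which is 35.0% of them, against 8.88% of all 3378 elements. They belonged to 7 genes: TIMM17A, MRPL44, MRPL22, MRPL42, MRPL19, SLIRP and CHCHD5. The median log2 RNA/DNA was 1.26 over the members and -0.03 over all elements. In 13 members RNA/DNA was above the centre in 3 of 3 RNA libraries (65.0%, against 25.8% of all elements), in 3 it was below in all, and 4 lay on both sides. The members held 0.947% of the plasmid DNA counts and 3.05% ± 0.171 (SD, n = 3) of the RNA counts, and the 7 called members alone held 2.69% ± 0.128 of the RNA.

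Members had more barcodes than the typical element, with a median of 11.5 against 6, and more DNA counts, 357.5 against 197. The share of elements called varied with the number of counted barcodes, so it is given within classes of that number as a description. Every counted barcode had at least 1 RNA count, so the number can itself depend on RNA output. The classes therefore do not hold depth apart from output. With 20 or more barcodes, 3 of 5 members were called, against 22.0% of 423 elements. With 10 to 19 barcodes 2 of 5 members were called, against 12.5% of 720. With 5 to 9 it was 1 of 3, against 7.22% of 1080, and with 2 to 4 it was 1 of 7, against 3.38% of 1155. The members' share was the higher one in each class, on few members per class. The median log2 RNA/DNA of the 13 members with at least 5 barcodes was 1.78, against -0.01 for the 2223 such elements.

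Among import genes, TIMM17A stood at the top of the set. TIMM17A encodes a core subunit of the TIM23 translocase of the inner membrane. Its element on chromosome 1 from 201924541 to 201924738 was carried by 51 counted barcodes with 1623 DNA counts, and it gave 2775, 2321 and 2954 RNA counts in replicates 1, 2 and 3. RNA/DNA was 14.6, 12.8 and 15.2 times the centre. The 3 libraries lay close together, and the log2 ratio of 3.83 ± 0.20 (SE) passed (adjusted p = 1.34e-27, edgeR). Among the 423 elements with at least 20 barcodes it ranked 3 in each RNA library. Over all 3378 elements it ranked 16, 20 and 15 in replicates 1, 2 and 3. This 1 element took up 0.150% of the plasmid DNA counts and 1.28% ± 0.0931 (SD, n = 3) of the RNA counts.

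Output of the TIMM17A element was spread over its counted plasmids. Of its 78 paired barcodes 65.4% were counted, and each counted one had at least 1 RNA count. All 51 counted barcodes had a mean RNA/DNA above the centre, from 1.14 to 44.7 times, with quartiles at 8.61 and 22.8 and a median of 13.9. In 44 of them (86.3%) the RNA count was 5 or more in each of the 3 libraries, against 6.43% of all 35153 barcodes. The barcode with most RNA held 5.88% of the element's RNA counts. Without that barcode, and with the highest barcode of every other element also left out, the log2 ratio was 4.22. The centre was set anew in that fit, so the rise over 3.83 is not a gain of this element. The barcode left out had an RNA/DNA of 15.9 times the centre.

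GRPEL1, the nucleotide exchange factor of the matrix chaperone that pulls precursors through TIM23, had the lowest element among those with at least 5 barcodes. It lies on chromosome 4 from 7069704 to 7069901. Its 19 barcodes had 519 DNA counts and 28, 30 and 23 RNA counts, so RNA/DNA was 0.462, 0.518 and 0.369 times the centre. All 3 libraries were below the centre, but the log2 ratio of -1.15 ± 0.93 (SE) did not pass (adjusted p = 0.751, edgeR). Of its barcodes, 17 of 19 (89.5%) had fewer than 5 RNA counts in every library, against 54.8% of all barcodes. No element of the series was called below the centre by edgeR (0% called) or by DESeq2, and limma-voom called 136. With other settings in edgeR, 50 were below with library totals, 7 with low RNA counts set to 0 and 3 without RNA replicate 1. Below it, 26 elements had an unadjusted p under 0.05 in edgeR.

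TOMM20, the outer membrane receptor for precursors with a targeting sequence, was the only TOM gene with a counted element, on chromosome 1 from 235292242 to 235292439. Its 17 barcodes had 532 DNA counts and 94, 91 and 33 RNA counts, which is 1.51, 1.53 and 0.517 times the centre. Replicate 3 fell on the other side of the centre from the other two. The log2 ratio was 0.25 ± 0.65 (SE; adjusted p = 0.972, edgeR). With library totals in place of TMM it was -0.49.

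The large subunit of the mitochondrial ribosome gave 12 members, 1 for each of 12 genes, and 4 of these were called above the centre. Their median log2 RNA/DNA was 1.51, with quartiles at 0.79 and 2.82. The MRPL genes all encode proteins of this subunit. MRPL22, MRPL42, MRPL19 and MRPL44 formed an upper group at mean ratios of 6.91 to 10.8 times the centre, and the other 8 lay between 0.142 and 3.44.

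The MRPL22 element on chromosome 5 from 154320558 to 154320755 had 7 barcodes, 231 DNA counts and 318, 242 and 298 RNA counts. RNA/DNA was 11.8, 9.39 and 10.7 times the centre, and the log2 ratio was 3.41 ± 0.43 (SE; adjusted p = 9.54e-10, edgeR). All 7 counted plasmids were above the centre, from 2.23 to 23.8 times. The barcode with most RNA held 26.8% of the RNA counts. With the highest barcode of each element left out, which also set the centre anew, the log2 ratio was 4.04.

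MRPL42 and MRPL19 were the members with most barcodes in this group. The MRPL42 element on chromosome 12 from 93861194 to 93861391 had 30 barcodes, 877 DNA counts and 744, 669 and 909 RNA counts, or 7.27, 6.83 and 8.63 times the centre. Its log2 ratio was 2.92 ± 0.29 (SE; adjusted p = 9.94e-14, edgeR). The MRPL19 element on chromosome 2 from 75873837 to 75874034 had 43 barcodes, 1461 DNA counts and 1270, 1155 and 1086 RNA counts, or 7.45, 7.08 and 6.19 times. Its log2 ratio was 2.79 ± 0.25 (SE; adjusted p = 1.51e-15, edgeR). The ranges of these elements over the 3 libraries overlapped. Of the MRPL42 barcodes 28 of 30 were above the centre, and of the MRPL19 barcodes 41 of 43. Counts of 5 or more in all 3 libraries were found for 60.0% of the former and 55.8% of the latter.

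MRPL44 had a high mean with a wide spread. Its element on chromosome 2 from 224822067 to 224822264 had 84 DNA counts and 49, 89 and 182 RNA counts, so RNA/DNA was 4.997, 9.49 and 18.0 times the centre. By RNA count before adjustment for depth, replicate 3 was the highest and replicate 1 the lowest in each of the 4 barcodes listed above. For barcode 4, with 16 and 17 counts in replicates 2 and 3, replicate 3 was not the higher after adjustment. The log2 ratio of 3.43 ± 0.75 (SE) passed (adjusted p = 0.000339, edgeR). The call was lost without RNA replicate 2 (adjusted p = 0.114) and without RNA replicate 3 (adjusted p = 0.134), at log2 ratios of 3.52 and 2.85. Setting the low RNA counts of 1 to 4 to 0 also ended it (adjusted p = 0.175).

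Below the upper group, MRPL43 on chromosome 10 from 102747149 to 102747346 had 9 barcodes, 212 DNA counts and 88, 66 and 101 RNA counts. Its ratios of 3.56, 2.79 and 3.97 were above the centre in 3 of 3 libraries. Its log2 ratio of 1.78 ± 0.71 (SE) had an unadjusted p of 0.0140 and an adjusted p of 0.131 by edgeR, and DESeq2 (0.0149) and limma-voom (0.00113) gave adjusted p-values past the threshold.

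MRPL13 lay on both sides of the centre, and MRPL11 was below it in every library. The MRPL13 element on chromosome 8 from 121457273 to 121457470 had 22 barcodes and ratios of 1.04, 0.621 and 1.62, from 592 DNA counts and 72, 41 and 115 RNA counts. The MRPL11 element on chromosome 11 from 66206195 to 66206392 had 14 barcodes and ratios of 0.904, 0.617 and 0.611, from 436 DNA counts and 46, 30 and 32 RNA counts. Their log2 ratios were 0.13 ± 0.62 and -0.49 ± 0.89 (SE), and neither passed (adjusted p = 0.999 and 0.953, edgeR). With library totals in place of TMM the MRPL13 value turned to -0.61. Both elements had no barcode with 5 or more RNA counts in every library. The paired barcodes were also counted unequally: 31.0% of the 71 paired MRPL13 barcodes were in the count table (exact 95% confidence interval 20.5 to 43.1%), against 30 of the 40 for MRPL42 (58.8 to 87.3%). Among members with at least 5 counted barcodes, the share counted was 65.2 to 87.5% in the called ones other than CHCHD5. In the uncalled ones it was 31.0 to 64.3%. At CHCHD5 the share was 40.4% for the called element and 46.4% for its neighbour, and at SLIRP 65.2% and 64.3%. Every counted barcode had at least 1 RNA count, so the share can depend on RNA output, which was not tested. Over all elements 40.8% of paired barcodes were counted. The intervals take barcodes as independent draws and cover the sampling of barcodes only. The filter of the count table is not stated, and the lowest values it holds are 10 DNA counts and 1 RNA count per barcode.

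The remaining MRPL members had 2 to 4 barcodes each and were not called. MRPL37 had ratios of 6.15, 2.42 and 1.57, and MRPL30 had 3.43, 2.21 and 1.57, both above the centre in 3 of 3 libraries. MRPL3 had 6.04, 0.407 and 0.757 and MRPL27 had 0.734, 4.86 and 0.476, so 1 library set the mean of each. MRPL24 had ratios of 0.209 and 0.219 in replicates 1 and 2 from 1 RNA count each. Its count of 0 in replicate 3 allows a ratio of up to 0.609 at 3 counts. For MRPL37 and MRPL3, where 1 barcode held nearly all RNA, the log2 ratios of 1.75 and 1.26 became -1.86 and -2.94 with the highest barcode of each element left out.

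SLIRP and CHCHD5 allowed a look within 1 promoter, since each had 2 overlapping elements. SLIRP encodes an RNA-binding protein that works with LRPPRC to stabilise mitochondrial messenger RNAs. CHCHD5 encodes a small twin-CX9C protein of the kind that is imported into the intermembrane space. In both genes 1 element was called above the centre and the other was not.

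At SLIRP on chromosome 14, the element from 78174344 to 78174541 had 15 barcodes, 400 DNA counts and 346, 318 and 282 RNA counts. RNA/DNA was 7.41, 7.12 and 5.87 times the centre, with a log2 ratio of 2.76 ± 0.39 (SE; adjusted p = 3.55e-08, edgeR). Its neighbour from 78174257 to 78174454, offset by 87 bp, had 9 barcodes, 315 DNA counts and 38, 40 and 59 RNA counts. Its ratios were 1.03, 1.14 and 1.56, with a log2 ratio of 0.31 ± 0.88 (SE; adjusted p = 0.973, edgeR). The ranges of the neighbours over the libraries did not overlap. The higher-coordinate element was 7.17, 6.26 and 3.76 times its neighbour in the 3 libraries. It had 14 of 15 plasmids above the centre, with a median barcode at 6.40 times, and the neighbour had 3 of 9, with a median at 0.398 times. With library totals the neighbour's log2 ratio was -0.42.

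At CHCHD5 on chromosome 2 the order along the chromosome was the opposite. The element from 113341949 to 113342146 had 19 barcodes, 561 DNA counts and 345, 224 and 308 RNA counts, or 5.27, 3.58 and 4.57 times the centre. Its log2 ratio was 2.16 ± 0.39 (SE; adjusted p = 1.11e-05, edgeR). Its neighbour from 113342093 to 113342290, offset by 144 bp and sharing 54 bp, had 65 barcodes, the most of any member, with 2001 DNA counts and 438, 288 and 254 RNA counts. RNA/DNA of the neighbour was 1.88, 1.29 and 1.06 times the centre, with a log2 ratio of 0.49 ± 0.32 (SE; adjusted p = 0.609, edgeR). Again the ranges did not overlap. The lower-coordinate element was 2.81, 2.77 and 4.33 times its neighbour, with 17 of 19 plasmids above the centre against 29 of 65. The neighbour's log2 ratio was -0.24 with library totals.

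These differences were tested in a fit of the interaction between element and RNA over all 542 pairs of consecutive elements whose starts lie within 4000 bp. Neither passed. The difference between the SLIRP elements was 2.46 ± 1.13 on the log2 scale (SE; adjusted p = 0.878, edgeR), and that between the CHCHD5 elements was 1.69 ± 1.09 (adjusted p = 0.999, edgeR). This fit called 0 of 542 pairs (0% called), and it lets the 1 DNA library vary as much as the RNA libraries do. It had 26 pairs at an unadjusted p under 0.05, with SLIRP among them and CHCHD5 not. That is near the number this threshold gives when no pair differs and the p-values are well calibrated. Calibration was not checked on these data, and consecutive pairs can share an element. A limma fit of the 3 differences of log2 ratios, which takes the DNA as without error, called 4 of 542 pairs (0.738%), with both genes among 121 pairs at an unadjusted p under 0.05. It gave 2.45 ± 0.73 for SLIRP (adjusted p = 0.116) and 1.69 ± 0.72 for CHCHD5 (adjusted p = 0.220). A difference between neighbours was therefore seen in 3 of 3 libraries at each gene but did not pass the threshold adjusted over all pairs. The 3 ratios of an element share its 1 DNA count, so they are not independent. How many of the 542 pairs lie apart in every library was not counted.

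CHCHD2, a relative of CHCHD5 that is found in mitochondria and the nucleus, had 4 barcodes at its element on chromosome 7 from 56174050 to 56174247. Its 88 DNA counts and 17, 18 and 25 RNA counts gave 1.65, 1.83 and 2.37 times the centre, above it in 3 of 3 libraries, with a log2 ratio of 0.96 ± 1.63 (SE; adjusted p = 0.953, edgeR).

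Values of the members correlated more closely between RNA libraries where barcodes were many. Over the 13 members with at least 5 barcodes, Pearson's r of log2 RNA/DNA between libraries was 0.984, 0.946 and 0.924. Over all 20 members it was 0.768, 0.847 and 0.858, and over all 3378 elements it was 0.522, 0.530 and 0.525. These values are descriptions: the libraries share 1 DNA library, which adds correlation, and the members span a wide range of activity. The 6 called members with at least 5 barcodes had a lowest library value of 3.58 times the centre or more. The 7 others with at least 5 barcodes had a highest library value of 3.97 or less, with MRPL43 the only one of these above 1.88. The calls were made from these same ratios, so this split describes the members and adds no support.

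The values of single plasmids are given for the 13 members with at least 5 barcodes. In each of the 6 called ones, the median barcode was at least 3.43 times the centre, and the share of barcodes with 5 or more RNA counts in every library was 26.3 to 86.3%. In the 6 uncalled ones besides MRPL43, the median barcode lay between 0.327 and 0.864 times the centre, and that share was 0 to 11.1%. MRPL43 stood between, with a median barcode at 3.30 times and a share of 22.2%. Members with 2 to 4 barcodes did not follow this division: the called MRPL44 had a median barcode at 10.7 times and 5 or more counts in every library for 2 of 4 barcodes, but among the uncalled ones MRPL3 had a median barcode at 4.33 times and MRPL37 a share of 33.3%. The median barcode of the whole library was at 0.747 times the centre. These barcode counts are the same data that gave the calls, so they describe the members and add no independent support.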

How the data were processed

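The authors deposited raw counts per barcode for 1 plasmid DNA and 3 RNA libraries and a table of barcodes with their elements. The values are whole numbers with unequal library totals and so not normalized. Coordinates are on hg19 (per the submitters' processing notes). The sources used here give no account of barcode matching, molecular identifiers or the table's filter. Groups came from sample titles. Counts were summed over barcodes per element, with at least 2 barcodes and 10 DNA counts required, and tested with edgeR 4.0.16 (R 4.3.3): TMM, quasi-likelihood, RNA against DNA, Benjamini-Hochberg at 0.05. The SE is the absolute log2 ratio over the square root of F. Pairs of neighbours were fitted with the library as a block and an element by RNA interaction. Alternatives used DESeq2 1.42.0 and limma 3.58.1 with a pseudocount of 0.5 counts for pairs. Tables were made in Python 3.11.15 (numpy 2.4.6, pandas 2.3.3, scipy 1.17.1). Fits were also run on simulated counts, in which the DNA library was drawn without the extra spread of the RNA libraries. No result above rests on that run. RNA libraries held 197554 to 218571 counts.

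Elements became members by position, and the list of genes and the groups by role were chosen with earlier results of these data known. Named in full were all called members, overlapping pairs, the highest and lowest member with at least 5 barcodes per role, the 3 with most barcodes and those at the distance limit. Other members, and the barcodes printed, were described after their values were seen. Starts are counted from 1.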

Additional observations from a re-analysis of the deposited data

How the results depend on the processing

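Of the 7 called members, 6 kept their call under every alternative they were fitted in, and none changed direction. MRPL44 was the exception, as given above. The number of members called ranged from 6 to 9 of 20 over the alternatives (6 of 13 with at least 5 barcodes). The stricter filters and RLE size factors changed no count by over 1.5 times. A window of 1000 bp kept all 20 members and dropping the filter kept the same 3378 elements, so neither could change a count. The highest count, 9, was from limma-voom, which added MRPL43 and the higher-coordinate CHCHD5 element (adjusted p = 0.0458). With library totals in place of TMM, 169 elements were above and 50 below the centre, against 300 and 0, and the median log2 ratio moved to -0.77 over all elements and to 0.52 over the members. With low RNA counts (1 to 4) set to 0 these values were 115, 7, -0.85 and 0.55. With limma-voom 511 elements were above and 136 below. Leaving out 1 RNA replicate gave 193 (without replicate 2) to 289 above and 0 to 3 below. The median over the members was then 1.00 to 1.58. The difference between neighbours was 2.28 to 2.74 for SLIRP and 1.48 to 1.80 for CHCHD5.

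Only uncalled members changed direction. With library totals the log2 ratios were -0.49 (TOMM20), -0.42 (lower-coordinate SLIRP), -0.24 (higher-coordinate CHCHD5) and -0.61 (MRPL13). With low RNA counts set to 0 they were -0.52, -0.47, -0.19 and -0.74, and -0.045 for MRPL27. With the highest barcode left out they were -1.86 (MRPL37) and -2.94 (MRPL3). Without 1 RNA replicate they ranged from -0.72 (without replicate 2) to 1.47 for MRPL27, from -0.80 (without replicate 1) to 1.76 for MRPL3, and from -0.27 (without replicate 3) to 0.41 for MRPL13. The cause was not tested for changes of setting. No paired analysis was possible because the DNA group has 1 sample, so the groups share fewer than 2 replicate numbers. DESeq2 gave no adjusted p for 5 of the 20 members.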
